A study of Rattus norvegicus with 12 samples.

Results

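The comparison described here set the 2 neuronal populations that were vulnerable to oxidative stress (OS), the hippocampal CA1 pyramidal layer and the cerebellar granule (CbG) cell layer, against each other. The study counts both as vulnerable, and the question was which transcripts differed between them at rest. It used the 3 CA1 and the 3 CbG arrays of the 12 in the series, with 3 arrays for each of 4 brain regions, chosen by their labels and blocked by replicate number. The rats were untreated animals of the Fisher 344/BN F1 cross at 6 months of age, and neurons were cut from brain sections by laser capture microdissection (LCM), in which a laser lifts chosen cells off a slide. RNA was amplified in a double labeling cycle and hybridized to the Affymetrix RAE230A rat array. The measurement was the MAS5 signal of each probe set, a single brightness value per transcript probe group, here on a log2 scale relative to the median of its array.

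CA1 pyramidal cells are the glutamatergic output neurons of the hippocampus, with large spiny dendrites and dense glutamate receptors, and they are among the neurons most sensitive to ischemia. Cerebellar granule cells are small glutamatergic neurons, packed in a layer below the Purkinje cells, and they receive mossy fibers on a few short dendrites under tonic GABA inhibition. The layers also hold other cells: astrocytes and myelin lie among both, and the bodies of Purkinje neurons border the granule layer.

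Of the 15923 probe sets on the array, 8986 were tested, of which 7473 had 1 gene symbol and stood for 6732 genes. A probe set was called with at least a 1.5-fold difference and an adjusted p under 0.05 in limma, a linear model fitted over the 4 regions with the replicate number as a block, with p-values adjusted by the Benjamini-Hochberg method. Signals are given in the order of the replicates. Differences are CA1 minus CbG on the log2 scale with their standard error (SE), so that a positive value is higher in CA1.

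Before any result, 1 array of each of 2 regions went against its label. The array labelled CbG replicate 3 correlated with CA3 replicates 1 and 2 at r = 0.933 and 0.923, but with CbG replicates 1 and 2 at r = 0.858 and 0.844 (log2 signal over 15923 probe sets). The array labelled CA3 replicate 3 correlated with CbG replicates 1 and 2 at r = 0.932 and 0.910, but with CA3 replicates 1 and 2 at r = 0.866 and 0.850. The signal of *Grik4*, a kainate receptor subunit of CA3 cells, was 679.9 and 969 in CA3 replicates 1 and 2, 621 on the array labelled CbG replicate 3 and 68.0 on the array labelled CA3 replicate 3. The comparison was therefore run with the arrays as labelled, without these 2 arrays, and with the 2 labels exchanged. Without these 2 arrays, CA1 replicates 1 to 3 stood against CbG replicates 1 and 2, with 10 arrays in the fit. Counts over all probe sets are given for each arrangement, but most genes and gene lists only for that without the 2 arrays. As labelled, at most 1 member of any of the 28 gene lists was called. Both the omission and the exchange were chosen from the values of these arrays, so their p-values and counts hold for those arrangements only. Where no arrangement is named the value is that without the 2 arrays.

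With the arrays as labelled, CA1 was higher for 48 probe sets (0.534% of those tested) and CbG for 26 (0.289%), and 1164 and 602 had an unadjusted p under 0.05. Without the replicate block these calls were 169 and 89. Without the 2 arrays, CA1 was higher for 2050 (22.8%) and CbG for 1282 (14.3%), and 502 of the former and 312 of the latter differed by at least 4-fold. With the labels exchanged, CA1 was higher for 2088 (23.2%) and CbG for 1560 (17.4%). All 74 probe sets called as labelled were called in the same direction in both other arrangements. The calls without the 2 arrays and with the labels exchanged shared 3099 probe sets, which was 93.0% of the first set and 85.0% of the second, and none was called in opposite directions. All arrangements share the CA1 arrays and CbG replicates 1 and 2, so this agreement is no independent evidence. The excess of calls in CA1 depended on the normalization. Without the 2 arrays 61.5% of calls were higher in CA1, but 51.4% were after quantile normalization and 49.3% without centring. The CA1 arrays had lower medians (a shift of -0.19 on the log2 scale), and the part of this shift in the excess was not tested.

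**Figure D1:**
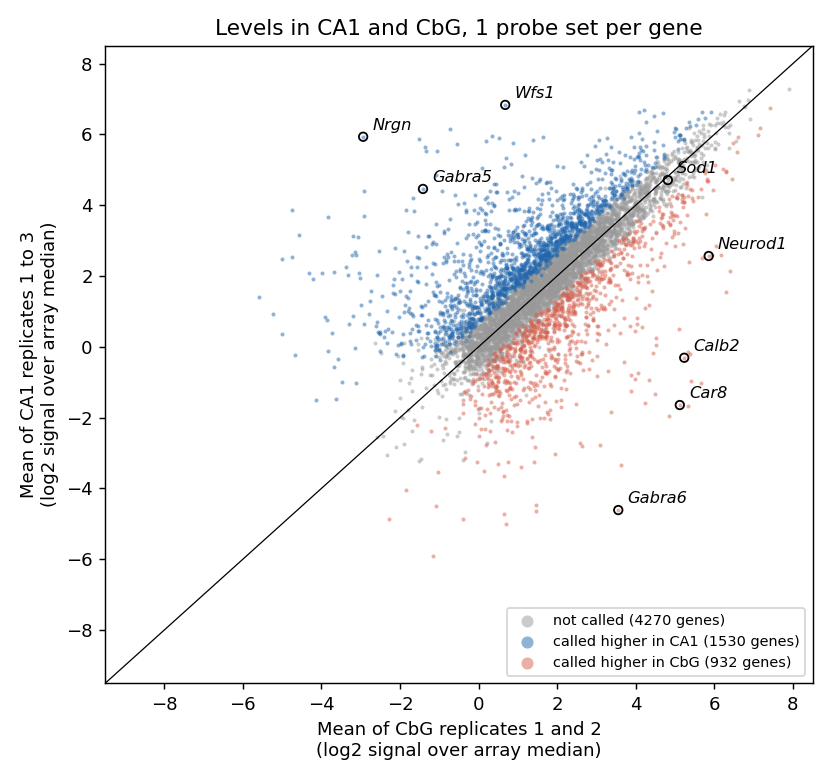
Mean log2 signal over the array median in CA1 (3 arrays, vertical axis) against CbG (replicates 1 and 2, horizontal axis) for 6732 genes, 1 probe set each. Blue points are the 1530 genes called higher in CA1, red points the 932 called higher in CbG without the 2 doubted arrays, grey points are not called, and the line marks equal levels; *Nrgn* and *Gabra6* lie farthest from it among the genes circled.

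The 3 genes that marked the populations followed the arrays rather than all of the labels. *Wfs1*, which encodes wolframin of the endoplasmic reticulum and marks CA1, had signals of 15688, 20538 and 17373 in CA1 and 344 and 234 in CbG replicates 1 and 2, with 3769 on the array labelled CbG replicate 3 and 290 on the array labelled CA3 replicate 3. All 3 CA1 arrays lay above the other 4 arrays, and the difference was 6.13 ± 0.29 (adjusted p = 2.66e-06), 4.87 ± 0.92 as labelled (0.053, not called) and 6.09 ± 0.45 with the labels exchanged (2.7e-06). *Gabra6*, the GABA-A receptor subunit of granule cells, had signals of 28.9, 2.8 and 3.2 in CA1, 3379 and 1283 in CbG replicates 1 and 2, 15.4 on the array labelled CbG replicate 3 and 2568 on that labelled CA3 replicate 3. The array labelled CbG replicate 3 fell inside the CA1 range and the array labelled CA3 replicate 3 inside the CbG range. The difference was -8.24 ± 1.22 (adjusted p = 0.000999), against -5.85 ± 2.55 as labelled (adjusted p = 0.252) and -8.32 ± 0.95 with the labels exchanged (5.44e-05). *Neurod1*, a basic helix-loop-helix transcription factor kept on in mature granule cells, had signals of 839, 663 and 1408 in CA1, 6868 and 15335 in CbG replicates 1 and 2, 1622 and 8829 on the same 2 arrays. It was thus detected at high signal in both populations, and was 10.7-fold higher in CbG (-3.42 ± 0.45, adjusted p = 0.000494). Its difference was -2.45 as labelled, which was not called, and -3.27 with the labels exchanged.

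**Figure D2:**
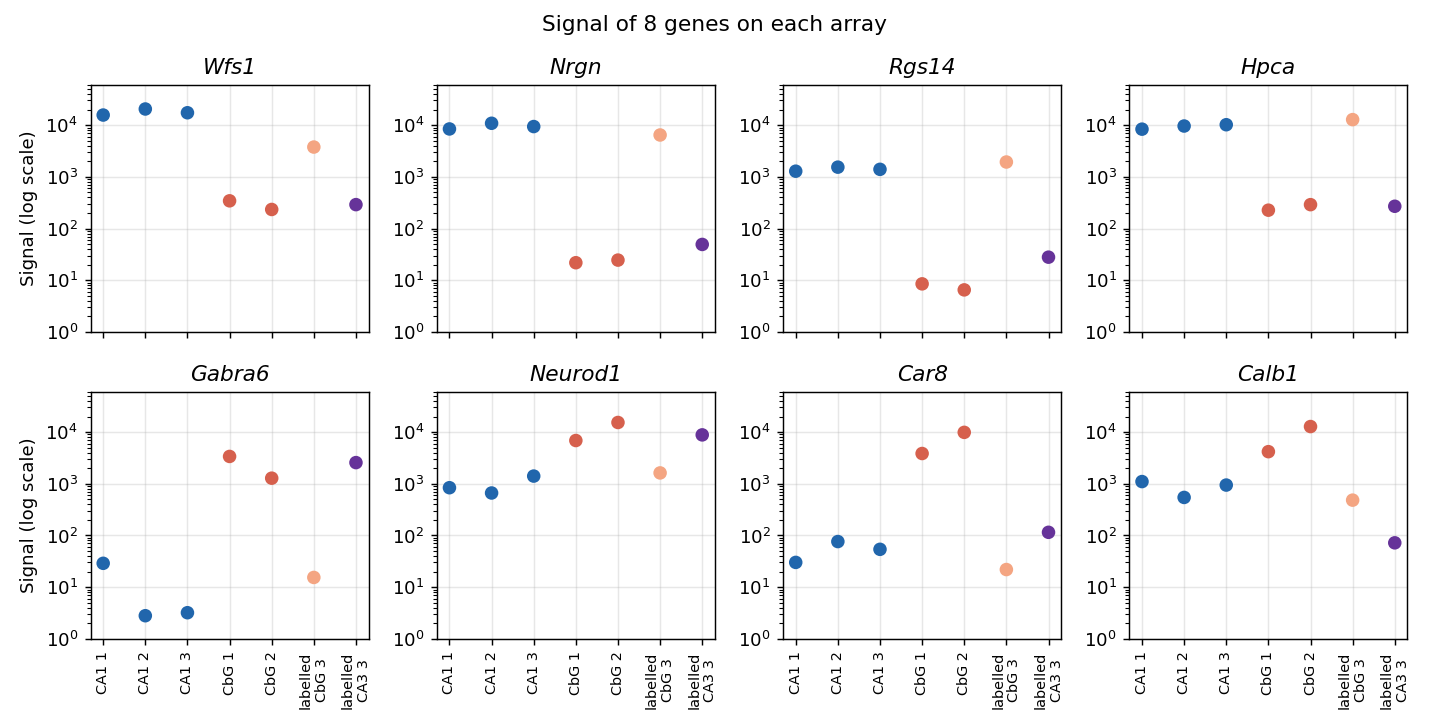
Signal of 8 genes (log axis) on the 3 CA1 arrays (blue), CbG replicates 1 and 2 (red), the array labelled CbG replicate 3 (light red) and the array labelled CA3 replicate 3 (purple). Each point is 1 array. The array labelled CbG replicate 3 has *Nrgn* at 6451 and *Gabra6* at 15.4, whereas the array labelled CA3 replicate 3 has 49.2 and 2568. *Car8* is high on CbG replicates 1 and 2 alone. *Calb1* is highest on those 2 arrays, with 1103, 544 and 944 in CA1.

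The promoters of these 3 genes and of *Nrgn*, the gene with the largest difference toward CA1, are shown as genes called in each direction. They were also chosen because their start regions differ in CpG content, so that contrast is a selected one. The sequences are the 150 bases before the RefSeq transcription start in build GRCr8, written 5′ to 3′ on the strand of the gene, with every CG dinucleotide in capitals. They lie at chr10:27327235-27327384 (minus strand) for *Gabra6*, chr3:84770455-84770604 (minus) for *Neurod1*, chr8:45452418-45452567 (minus) for *Nrgn* and chr14:78035055-78035204 (plus) for *Wfs1*.
Gabra6: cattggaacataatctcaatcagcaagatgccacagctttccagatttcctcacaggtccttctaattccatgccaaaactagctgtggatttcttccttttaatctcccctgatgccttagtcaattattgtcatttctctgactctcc
Neurod1: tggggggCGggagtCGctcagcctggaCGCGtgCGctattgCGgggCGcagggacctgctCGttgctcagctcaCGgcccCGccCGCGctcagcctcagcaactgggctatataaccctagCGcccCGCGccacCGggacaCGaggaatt
Nrgn: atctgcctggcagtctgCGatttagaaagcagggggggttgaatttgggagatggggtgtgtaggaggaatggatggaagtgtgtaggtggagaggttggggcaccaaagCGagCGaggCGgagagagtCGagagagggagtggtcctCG
Wfs1: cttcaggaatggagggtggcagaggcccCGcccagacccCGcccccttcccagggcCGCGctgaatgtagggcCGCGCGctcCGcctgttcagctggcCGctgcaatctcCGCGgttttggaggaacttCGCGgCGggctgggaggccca
The stretch before *Gabra6* held 0 CG dinucleotides, that before *Neurod1* held 17, that before *Nrgn* 6 and that before *Wfs1* 14. Over the 250 bases before the start, 15.2% of the windows of genes called higher in CbG held fewer than 5 CG dinucleotides (762 of 932 genes had a window), as did 8.90% of those of genes called higher in CA1 (1276 of 1530) and 7.28% of those tested but not called, against 44.7% of all 33469 windows in the table. The E-box letters CAGATG, on both strands, were found in 8.63% of windows of genes higher in CbG and 8.55% of those higher in CA1. The share was 8.48% for genes tested but not called and 14.0% for all windows. The palindrome CAGCTG was found in 12.7%, 10.3%, 10.9% and 12%, in the same order. These are counts of letters, with no test of the differences.

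The 12 genes with the largest differences toward CA1 encode proteins of several kinds. *Nrgn* (neurogranin, which binds calmodulin in dendritic spines) had signals of 8444, 10869 and 9395 in CA1 and 21.8 and 24.5 in CbG replicates 1 and 2, 6451 on the array labelled CbG replicate 3 and 49.2 on that labelled CA3 replicate 3. The difference was 8.92 ± 0.24 (adjusted p = 2.56e-07), and 6.12 ± 2.51 as labelled, which was not called (adjusted p = 0.234). *Rgs14*, a G protein regulator, had 1286, 1539 and 1397 in CA1 and 8.5 and 6.5 in CbG (7.72 ± 0.21). *Pou3f1*, a POU domain transcription factor, had 2464, 2058 and 2254 in CA1 and 3.5 and 12.6 in CbG (8.61 ± 1.61). In each of these genes the CbG signals were below the array medians, which lay between 147.7 and 187.5, so that the size of the difference rested on very low signals; no detection call was used here.

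The same 12 held the extracellular protease *Klk8* (7.50), the actin regulators *Inf2* (7.33) and *Wipf3* (6.85), the secreted ligand *Wnt4* (7.10), the sodium channel subunit *Scn3b* (7.05) and the cholecystokinin precursor *Cck* (6.87), each a log2 difference called without the 2 arrays and with the labels exchanged. *Wdr17* (7.42), *Mpped1* (7.37) and *Fibcd1* (7.23) completed the 12 largest. On the array labelled CbG replicate 3 the signal of *Scn3b* was 3469.9, between the 72.6 and 65.3 of CbG replicates 1 and 2 and the 8587, 8080 and 7006 of CA1. None of the 12 was called as labelled, where this array stood with the CbG group.

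Of the 12 genes with the largest differences toward CbG, *Gabra6* and *Chn2* were on the granule cell list and *Car8* was on the Purkinje list. All of the 12 but *Pcp4* were below the array median on all 3 CA1 arrays, so that the size and the order of their differences rested on low signals. *Chn2* (beta-chimaerin, which turns off the GTPase Rac) had signals of 71.3, 81.9 and 88.4 in CA1, 8111 and 6853 in CbG replicates 1 and 2 and 9185 on the array labelled CA3 replicate 3 (-6.48 ± 0.35, adjusted p = 5.08e-06). *Pkib*, an inhibitor of protein kinase A, had 11.2, 26.4 and 12.3, 1991 and 2396 and 2719 on the same arrays (-6.97 ± 0.49), and *Tpd52l1* had 72.5, 11.3 and 77.6, 5139 and 5007 and 5064 (-7.03 ± 0.67). The 3 genes were high on every array with granule cell signal and low on every CA1 array. *Il16*, a cytokine precursor with a neuronal form in the cerebellum, was at 72, 49.7 and 33.2 in CA1, 6979.7 and 7318 in CbG replicates 1 and 2 and 1839.7 on the array labelled CbG replicate 3, so that it was called as labelled too (-6.39 ± 0.80, adjusted p = 0.0243). Others were the transporter *Slc22a4* (-6.25), the junction scaffold *Patj* (-6.07), the activin receptor *Acvr1c* (-6.04), *Exoc3l1* (-5.97) and *Car10* (-5.94).

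*Car8*, which binds the inositol trisphosphate receptor in Purkinje cells, behaved otherwise. Its signals were 3849.7 and 9877 in CbG replicates 1 and 2, 30.1, 76.2 and 53.9 in CA1 and 115 on the array labelled CA3 replicate 3. It was high on the first pair of CbG arrays but not on the array with granule cell signal labelled CA3, and its difference was -6.90 ± 0.44 without the 2 arrays and -4.90 ± 1.07 (adjusted p = 0.00373) with the labels exchanged. *Pcp4*, a calmodulin regulator of Purkinje and CA3 cells, had 183, 60 and 39.9 in CA1, 4748 and 16935 in CbG replicates 1 and 2, 7586 on the array labelled CbG replicate 3 and 242 on that labelled CA3 replicate 3. *Pcp2* and *Calb1* (calbindin, a calcium buffer) were also higher on CbG replicates 1 and 2 than on the array labelled CA3 replicate 3. Unlike *Car8*, *Calb1* was above the array medians in CA1, at 1103, 544 and 944. It was at 4181 and 12798 in CbG replicates 1 and 2 and 72 on the array labelled CA3 replicate 3. The *Calb1* difference of -3.03 ± 0.62 (adjusted p = 0.0053) was -0.79 with the labels exchanged (adjusted p = 0.672), where the call was lost.

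The summed signal of the 8 Purkinje markers on the array was 8831, 8292 and 8465 in CA1, 19691 and 41499 in CbG replicates 1 and 2, 4348 on the array labelled CbG replicate 3 and 6089.5 on that labelled CA3 replicate 3. Of the 6 tested, 5 were higher in CbG without the 2 arrays and 3 with the labels exchanged, and *Homer3* was below the median on all 7 arrays. *Itpr1*, the inositol trisphosphate receptor, which CA1 neurons also make, carried most of the CA1 sums at 7072, 7116 and 6986, and it was not called (4992 and 8932 in CbG replicates 1 and 2, 0.21 ± 0.30). On the array labelled CA3 replicate 3 the sum was mostly *Plcb4* (3446) and *Itpr1* (2119). The part of Purkinje RNA in these differences was not tested. In captured tissue of this kind, fewer cells of a type and less RNA per cell cannot be told apart.

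Glial markers also ran mostly toward CbG, counted with 1 probe set a gene. Of 11 astrocyte genes tested, 6 were higher in CbG and 0 in CA1 (median difference -0.87, against 0.15 over all genes), with *Slc4a4*, a bicarbonate transporter, at -3.06 and *Aqp4*, the astrocyte water channel, at -2.27. Of the other probe sets of *Aqp4*, 1 was also called (-1.50) and 1 was not (0.05 ± 0.32, adjusted p = 0.912). A second probe set of *Slc1a3*, whose chosen probe set was not called (-0.77), was higher in CA1 (2.23 ± 0.22, adjusted p = 0.000107). Second probe sets of *Slc4a4* (-2.04) and *Glul* (-0.78) were higher in CbG. The summed signal of 14 astrocyte markers was 19322, 14409 and 16356 in CA1 and 33486 and 50807 in CbG replicates 1 and 2, and 19964 and 25940 on the arrays labelled CbG replicate 3 and CA3 replicate 3. *Slc1a2* and *Fgfr3* were below the median on all 7 arrays. Of 8 oligodendrocyte genes, 5 were higher in CbG and 0 in CA1 (median -1.18), among them the myelin genes *Cldn11* (-2.40), *Mobp* (-1.68) and *Cnp* (-1.22). A second probe set of *Mobp* was not called (-0.78 ± 0.35, adjusted p = 0.115). The call of *Cnp* was lost without CbG replicate 2 (-0.75, adjusted p = 0.191), without CA1 replicate 2 (-1.03, 0.103) and without CA1 replicate 3 (-1.19, 0.053). Their 11 markers summed to 7337, 4893 and 5178 in CA1 and 18416 and 15549 in CbG replicates 1 and 2, and to 13596 and 21944 on the same 2 arrays.

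Microglia and vessel markers were mostly dim. For microglia, 9 of 13 were below the median on all 7 arrays and the sums ran from 1093 to 2829, with 1 of 5 tested genes higher in CbG (*Cd74*, -2.13). For endothelial and mural cells, 6 of 10 were below it on all 7 arrays, the sums were 1030, 586.5 and 1190.1 in CA1 against 3180 and 1894 in CbG replicates 1 and 2, and *Slco1a4* (-2.29) and *Vwf* (-0.94) were higher in CbG among 3 tested. The *Vwf* call was lost without CA1 replicate 1 (-0.72, adjusted p = 0.127) or CbG replicate 1 (-0.52, 0.179). The part of glial and vascular RNA in the calls toward CbG was not tested.

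**Figure D3:**
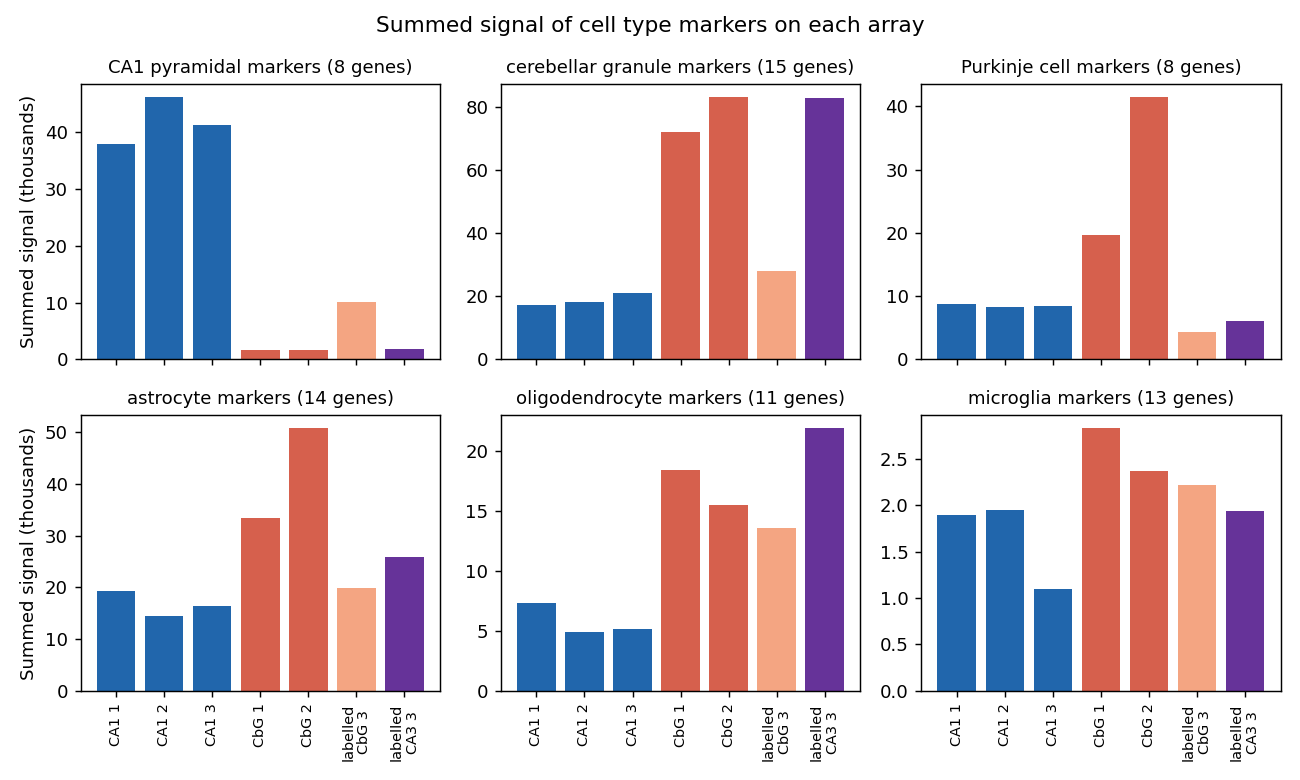
Summed signal (axis in units of 1000, each panel on its own scale from 0) of the markers of 6 cell types on the 3 CA1 arrays (blue), CbG replicates 1 and 2 (red), the array labelled CbG replicate 3 (light red) and that labelled CA3 replicate 3 (purple). Granule markers sum to 72110.3 and 83290 in CbG replicates 1 and 2 and to 82779 on the array labelled CA3 replicate 3, but to 27931 on the array labelled CbG replicate 3, of which the widely expressed *Snap25* is 24551. Purkinje markers stand out on CbG replicate 2 at 41499.

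Marker lists of the intended cells separated the populations as a whole. Of 8 CA1 pyramidal genes tested, 7 were higher in CA1 and 0 in CbG (median difference 6.32), *Gpr161*, a G protein coupled receptor, among them at 6.52. Of 17 genes of hippocampal and forebrain excitatory neurons, 16 were higher in CA1 and 1 in CbG (median 3.59). The transcription factor *Meis2* was at 1141, 801 and 899 in CA1 and 14.8 and 24.4 in CbG (5.82 ± 0.31). Of 13 granule cell genes, 11 were higher in CbG and 0 in CA1 (median -3.42), including the protocadherin *Fat2* (69.9, 50.8 and 64.8 in CA1, 4826 and 3234 in CbG replicates 1 and 2, -5.82). *Zic1* and *Barhl2*, other granule lineage factors, were below the median on all 7 arrays. As labelled, 0 members of the 3 lists were called, and their median differences were 4.97 for the CA1 list and 2.63 for the excitatory list. Of 7 CA3 genes tested, 1 was higher in CA1 (*Bok*, 1.57, with a second probe set not called at 0.64, adjusted p = 0.0798) and 4 in CbG, among them *Pcp4* and, at low signals, *Grp* (3.3, 8.5 and 5.6 in CA1 and 33.9 and 38.7 in CbG) and *Grik4* (42, 45.3 and 16.5 and 70 and 136). The *Grik4* call was lost without CA1 replicate 2 (-1.18, adjusted p = 0.107) or CbG replicate 2 (-0.98, 0.183).

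Inhibitory transmission differed by subunit. GABA-A receptors are pentamers whose subunits set where they sit and how they respond: alpha6 and delta form the extrasynaptic receptors of granule cells, and alpha5 is a subunit of hippocampal pyramidal dendrites. *Gabra5* was at 3479, 3228 and 3582 in CA1, 42.9 and 103 in CbG replicates 1 and 2 and 9.8 on the array labelled CA3 replicate 3 (5.75 ± 0.37, adjusted p = 1.2e-05). *Gabrd* ran the other way, at 267, 395 and 405, 3959 and 3262 and 4545 (-3.17 ± 0.32). *Gabrb1* was 6.12-fold higher in CA1 (2.61 ± 0.24). *Gabrb2* was at 5109, 5513 and 5264 in CA1 and 5785 and 6618 in CbG replicates 1 and 2, and its difference of -0.02 ± 0.22 had a 95% interval of -0.51 to 0.47, which lay within 1.5-fold. Thus 2 of 5 tested subunits were higher in each population (80% called, against 36.6% of all genes). Of 10 subunits on the array 5 passed the filter, against 6732 of 10411 over all genes. A gene high in 1 region alone can pass it, so the share called in this and other lists is that of tested members only.

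Glutamate receptors were split in the same manner, with 5 of 9 tested ionotropic subunits (of 16 on the array) higher in CA1 and 3 in CbG. That was 88.9% called, against 36.6% of all genes. The AMPA receptor subunits *Gria1*, *Gria2* and *Gria3* carry fast excitation. *Gria1* was at 2293, 1791 and 2364 in CA1, 159 and 193 in CbG replicates 1 and 2, 1299 on the array labelled CbG replicate 3 and 43.9 on that labelled CA3 replicate 3. It was 14.5-fold higher in CA1 (3.86 ± 0.32), *Gria3* 10.7-fold (3.42 ± 0.26) and *Gria2*, the subunit that limits calcium entry, 4.13-fold (2.05 ± 0.24). The NMDA receptor subunit *Grin2c*, which replaces others as granule cells mature, was at 295, 379 and 319 in CA1 and 1648 and 1562 in CbG (-2.12 ± 0.21). *Grin1*, the subunit common to NMDA receptors, was picked after its values were seen and had probe sets called in opposite directions. Its chosen probe set (1.71 ± 0.30) is counted above as higher in CA1, and another was higher in CbG (-1.22 ± 0.26). The probe sets did not settle its direction. Among metabotropic receptors and scaffolds 5 of 10 tested (of 20 on the array) were higher in CA1 and 3 in CbG (80% called). *Grm4*, a presynaptic receptor of parallel fibers, was at 30.8, 68.6 and 35.5 in CA1 and 787 and 454 in CbG (-3.59 ± 0.37). The scaffold *Dlg1* was also higher in CbG (-2.37), whereas *Homer1* (2.08) and *Dlgap4* (2.20) were higher in CA1.

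**Figure D4:**
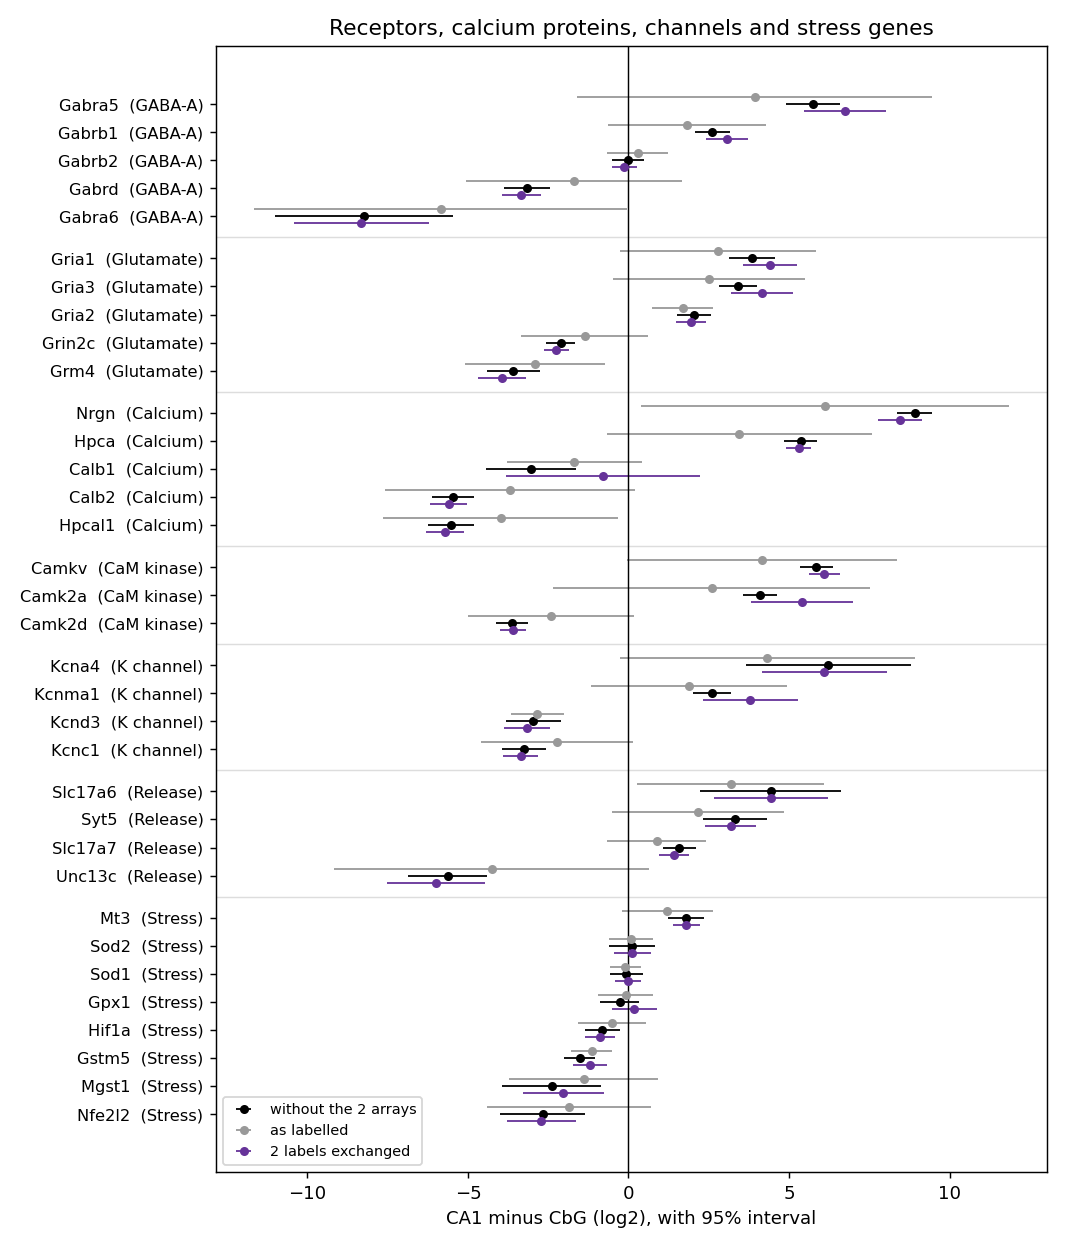
CA1 minus CbG (log2, horizontal axis) with 95% intervals for 34 genes of 7 groups, without the 2 doubted arrays (black), as labelled (grey) and with the 2 labels exchanged (purple). Grey intervals are the widest for most genes, as for *Nrgn* (6.12 ± 2.51, estimate and SE, as labelled against 8.92 ± 0.24 without the 2 arrays). *Calb1* is the gene shown whose call is lost with the labels exchanged.

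Of 17 calcium binding proteins and sensors, 6 were higher in CA1 and 7 in CbG (76.5% called, against 36.6% of all genes). Among the neuronal calcium sensors, *Hpca* (hippocalcin) was at 8365, 9618 and 10195 in CA1 and 226 and 289.7 in CbG (5.37 ± 0.23), and its relative *Hpcal1* was at 128, 186 and 106 and 8924 and 6158 (-5.53 ± 0.31). The buffer calretinin, *Calb2*, a granule cell protein, was at 80.1, 232 and 107 in CA1 and 5493 and 8087 in CbG (-5.46 ± 0.28). The groups did not overlap in any of the 3, and the array labelled CA3 replicate 3 gave 269.5, 8646 and 6639. Of 22 pumps, exchangers and channels that move calcium, 11 were higher in CA1 and 2 in CbG (59.1% called, median 0.65). The exchangers *Slc24a2* (4.91) and *Slc24a3* (3.08), the T-type channel *Cacna1h* (3.24) and the channel subunit *Cacnb1* (6.21) were higher in CA1. Among the plasma membrane calcium pumps, picked after their values were seen, *Atp2b1* was higher in CA1 (2.47), *Atp2b3* was higher in CbG (-0.93) and *Atp2b2* was not called (-0.06 ± 0.25).

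The alpha and delta subunits of calmodulin kinase II differed in opposite directions. *Camk2a*, the alpha subunit of the postsynaptic kinase, was at 1083, 1403 and 1019 in CA1 and 61.6 and 100.1 in CbG replicates 1 and 2 (4.09 ± 0.24), and *Camk2d*, the delta subunit, was at 872, 882 and 1089 and 11898 and 13456 (-3.62 ± 0.22). *Camk2b*, the beta subunit, picked after its values were seen, was at 7659, 9816 and 8121 and 6231 and 7429 and was not called (0.42 ± 0.23). A second, dimmer probe set of *Camk2b* was called higher in CA1 (1.98 ± 0.43, adjusted p = 0.0071), so the probe sets did not settle whether it differed. *Camkv*, a kinase-like protein of spines, and *Camkk1*, which activates other calmodulin kinases, were higher in CA1 (5.85 and 2.19). In all, 7 of 15 kinases and phosphatase subunits were higher in CA1 and 3 in CbG (66.7% called). Of protein kinase C isoforms and G protein regulators, 5 of 22 were higher in CA1 (*Prkca* 1.90, *Rgs12* 2.31) and 2 in CbG (*Rgs3* -2.43), so that 31.8% were called, against 36.6% of all 6732 genes.

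Potassium channels set firing patterns and were divided, with 7 of 17 tested subunits (of 33 on the array) higher in CA1 and 5 in CbG. That was 70.6% called, against 36.6% of all genes. *Kcna4* was at 659.5, 681 and 454 in CA1 and 1.4 and 65 in CbG (6.23 ± 1.13), with CbG replicates 1 and 2 far apart at this low level. *Kcnma1*, the large conductance calcium-activated channel, was 6.05-fold higher in CA1 (2.60 ± 0.26). *Kcnc1*, of fast-spiking neurons, was at 897, 1333 and 688 in CA1 and 10765 and 10904 in CbG (-3.25 ± 0.30). *Kcnd3*, an A-type channel, was at 46.3, 70.8 and 68.5 in CA1, 311 and 841 in CbG replicates 1 and 2 and 417 on the array labelled CbG replicate 3, and so was called in every arrangement (-2.83 ± 0.36 as labelled, adjusted p = 0.0243).

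Of 25 genes of synaptic vesicle release, 11 were higher in CA1 and 4 in CbG (8 and 4 with the labels exchanged). That was 60% called, against 36.6% of all genes, and 48% against 39.9% with the labels exchanged. The vesicular glutamate transporters *Slc17a7* and *Slc17a6* load glutamate into vesicles. *Slc17a7* was at 2182, 1956 and 2294 in CA1 and 888 and 726 in CbG (1.59 ± 0.23). *Slc17a6* was at 854, 1582 and 2219 and 46.7 and 199 (4.42 ± 0.97), and its call was lost without CbG replicate 1 (3.24, adjusted p = 0.0654). *Syt5*, a synaptotagmin, was higher in CA1 (3.31), and *Unc13c*, a priming factor of cerebellar synapses, was at 41.5, 32.3 and 8.8 in CA1 and 2055 and 1100 in CbG (-5.63 ± 0.54).

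Neuropeptides and their receptors had the highest share of calls toward CA1 among the 18 functional groups shown in the plot of called genes by group: 14 of 23 were higher in CA1 and 3 in CbG (median 1.49), against 1530 and 932 of 6732 over all genes. *Vip* was at 1842, 976 and 1378 in CA1 and 43.7 and 8.6 in CbG (6.28 ± 0.53), *Npy* at 1741, 1252 and 2331 and 177 and 229.9 (3.13 ± 0.59), and *Tac3* at 174, 209 and 224 and 5.7 and 5.3 (5.65 ± 0.96). The CbG signals of *Vip* and *Tac3* were below the array medians, so that the size of their differences rested on low signals. These peptides, like *Cck*, are made by hippocampal interneurons, and *Vip*, *Npy* and *Cck* are on the interneuron list used here. Of 8 interneuron genes tested, 3 were higher in CA1 and 2 in CbG. The defining gene *Gad1* was at 4536.5, 4980.4 and 4739.5 in CA1 and 4413 and 7325 in CbG, *Gad2* was below the median on all 7 arrays, and the 9 interneuron markers summed to 16092, 15211 and 17965 in CA1 and 18994 and 25297 in CbG replicates 1 and 2 and to 8311 and 16344 on the arrays labelled CbG replicate 3 and CA3 replicate 3. The CbG sums were mostly *Reln*. The part of interneuron RNA was not tested. *Reln*, the secreted glycoprotein of granule cells and hippocampal interneurons, ran the other way at 561, 333 and 496 and 12847 and 14935 (-4.66 ± 0.48).

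Transcription factors of the 2 lineages also parted, with 14 of 29 higher in CA1 and 6 in CbG (69% called, against 36.6% of all genes). *Pax6*, which is kept in granule cells, was at 109, 82.4 and 82.2 in CA1, 2465 and 2772 in CbG replicates 1 and 2 and 3277 on the array labelled CA3 replicate 3 (-4.81 ± 0.41). *Lmo3*, a LIM domain cofactor, was at 543, 692 and 674 in CA1 and 56.7 and 15.3 in CbG (4.70 ± 0.47). Neither was called as labelled (adjusted p = 0.28 and 0.276).

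**Figure D5:**
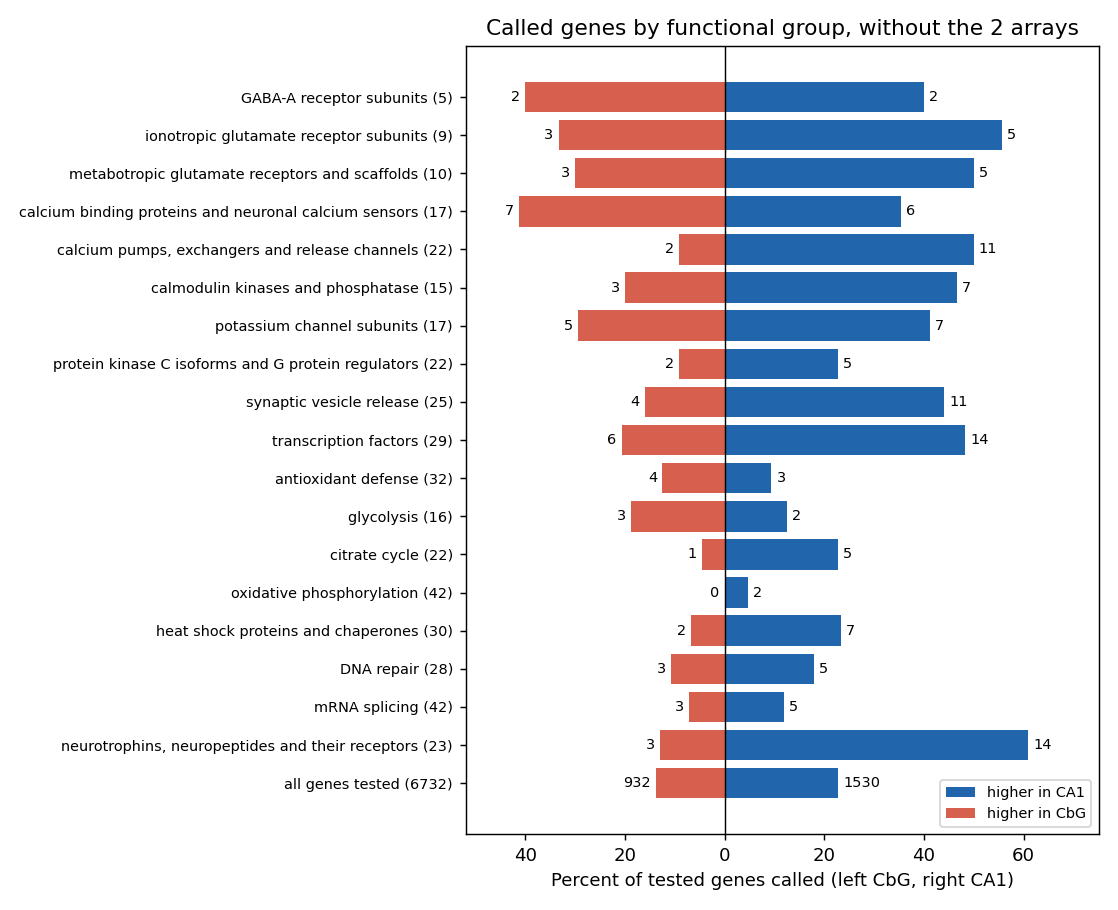
Percent of the tested genes of 18 functional groups called higher in CA1 (blue, to the right) or in CbG (red, to the left) without the 2 doubted arrays, with the number called at each bar and the number tested in parentheses. Neuropeptides (14 and 3 of 23) and oxidative phosphorylation (2 and 0 of 42) have the highest and the lowest percent toward CA1, beside 1530 and 932 of all 6732 genes.

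Genes of oxidative phosphorylation, the mitochondrial chain that makes ATP, were called least often. Of 42 tested, 2 were higher in CA1 and 0 in CbG (4.76% called, against 36.6% of all genes), with a median difference of -0.03. *Ndufa5* (1.99) and *Ndufb10* (0.86), both of complex I, were the 2. The *Ndufb10* call was lost without CA1 replicate 2 (0.91, adjusted p = 0.0614), CbG replicate 1 (0.90, 0.0674) or CbG replicate 2 (0.83, 0.101), and also after quantile normalization (0.60, 0.0712) and with only the CA1 and CbG arrays in the fit (0.73, 0.132). *Atp5mc3*, of the ATP synthase, was at 7100.4, 7008 and 7367 in CA1 and 7211 and 9182 in CbG, with a difference of -0.03 ± 0.22 and a 95% interval of -0.52 to 0.45. *Cox4i1* (-0.41 to 0.53) and *Cyc1* (-0.48 to 0.43) also had intervals within 1.5-fold either way, as did 26 of the 460 list members and 385 of all 8986 probe sets (4.28%). The glycolytic enzyme *Eno2* belonged to them (5909.7, 7961 and 7048 in CA1, 7328 and 8122 in CbG, interval -0.42 to 0.53).

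Energy genes upstream of the chain showed single differences, with 27.3% of the citrate cycle list and 31.2% of glycolysis called, against 36.6% of all genes. In the citrate cycle list 5 of 22 were higher in CA1 and 1 in CbG: *Acly* (1.23), *Dlst* (1.11) and *Idh3a* (1.07) were higher in CA1 and *Idh3g*, another subunit of the same dehydrogenase as *Idh3a*, was higher in CbG (-0.88). Without CbG replicate 2 the *Idh3g* call was lost (-0.72, adjusted p = 0.0724). In glycolysis 2 of 16 were higher in CA1, with the lactate dehydrogenase *Ldha* at 4181, 3721 and 4672 in CA1 and 1407 and 1758 in CbG (1.59 ± 0.29). There 3 were higher in CbG, the phosphofructokinase *Pfkp* (-1.27 ± 0.25), the glucose transporter *Slc2a1* (-0.99) and *Aldoc* (-2.07), which is also an astrocyte and Purkinje gene and whose signal was 5086 and 18768 in CbG replicates 1 and 2. The *Aldoc* call was lost without CA1 replicate 2 (-1.80, adjusted p = 0.0566).

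Of 32 antioxidant genes, 3 were higher in CA1 and 4 in CbG, so that 21.9% were called, against 36.6% of all genes. With the labels exchanged 7 and 5 were called, or 37.5%, near the 39.9% of all genes in that arrangement. The median without the 2 arrays was 0.15, as over all genes. The superoxide dismutases were not called: *Sod1*, the cytosolic enzyme, was at 4578, 3807 and 3892 in CA1 and 4614 and 5400 in CbG (-0.06 ± 0.23, interval -0.58 to 0.45), and *Sod2*, the mitochondrial enzyme, at 362, 341 and 430.3 and 301 and 525 (0.11 ± 0.32, interval -0.61 to 0.84). *Gpx1*, glutathione peroxidase, was at 659, 888 and 906 and 1364 and 789 (-0.28 ± 0.27, interval -0.88 to 0.33). Relative to the array medians the groups overlapped for all 3, and the intervals of *Sod2* and *Gpx1* reached beyond 1.5-fold in at least 1 direction. *Nfe2l2*, the transcription factor that turns on antioxidant genes, was at 84.8, 122 and 62.7 in CA1, 679 and 679 in CbG replicates 1 and 2, 89.1 on the array labelled CbG replicate 3 and 519.5 on that labelled CA3 replicate 3. It was 6.39-fold higher in CbG (-2.68 ± 0.59, adjusted p = 0.00733, 0.00122 with the labels exchanged), with the call lost without CbG replicate 2 (-2.14, 0.0709). *Mgst1* (-2.39) and *Gstm5* (-1.51), glutathione transferases of glia among other cells, were higher in CbG. The *Mgst1* call was lost without CA1 replicate 1 (-1.79, adjusted p = 0.114), CA1 replicate 3 (-2.28, 0.0614) or CbG replicate 2 (-1.72, 0.181), and also with a robust prior (0.0657) and with no filter (0.118). *Mt3*, the brain metallothionein, was higher in CA1 (3059, 3413 and 3726 against 1302 and 922, 1.79 ± 0.24).

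Stress, repair and splicing genes were called at shares near or below the 36.6% of all genes, with 30% of chaperones, 28.6% of DNA repair genes and 19% of splicing genes called. These shares rest on 1 probe set a gene. Further probe sets of splicing genes were called in both directions, such as *Srsf1* (-1.20) and *Sf3a1* (1.83). The chosen probe set of *Hnrnpa3* was not called (-0.24), whereas another was higher in CbG (-0.98) and others were not called. Of 30 heat shock proteins and chaperones, 7 were higher in CA1, such as *Hsph1* (1.78) and *Hspa12a* (1.67), and 2 in CbG, the small heat shock proteins *Hspb6* (-2.24) and *Cryab* (-1.33), of which *Cryab* is also an oligodendrocyte gene. Of 28 DNA repair genes, 5 were higher in CA1, including the excision repair genes *Ercc1* (1.09) and *Ercc3* (0.96), and 3 in CbG, with the DNA ligase *Lig1* at 138, 119 and 110.5 in CA1 and 477 and 469 in CbG (-1.71 ± 0.22). The *Ercc3* call was lost without CA1 replicate 2 (0.87, adjusted p = 0.0529) or CbG replicate 1 (0.84, 0.0612). *Xrcc1* was called higher in CA1 (1.14) but not with the labels exchanged (0.83, adjusted p = 0.0579), and it was 0.38 (adjusted p = 0.344) without CbG replicate 2, 0.87 (0.167) without CA1 replicate 2 and 1.12 (0.0798) without CA1 replicate 3. Of 42 splicing genes, 5 were higher in CA1, led by *Khdrbs3* (8300.5, 8854 and 7919 against 393 and 269, 4.92 ± 0.22), and 3 in CbG, led by *Dhx16* (-1.50).

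Among other genes that the study raised for vulnerability, the 2 vulnerable populations were not alike. The ubiquitin proteases *Usp1* (617, 441 and 621 in CA1, 1558 and 1933 in CbG, -1.45 ± 0.34) and *Usp3* (413, 269.5 and 337 and 1497 and 1109, -1.86 ± 0.25) were higher in CbG, and so was *Hif1a*, the hypoxia factor (-0.81 ± 0.24, adjusted p = 0.0289). The *Usp1* call was lost without CA1 replicate 2 (-1.17, adjusted p = 0.0598) and without CbG replicate 2 (-1.02, 0.0973), and that of *Hif1a* without any single one of CA1 replicates 1 and 2 and CbG replicates 1 and 2 (adjusted p = 0.0668 to 0.126). A second probe set of each of *Usp1* and *Hif1a* was tested and not called. *Nefl*, a neurofilament of large axons, was at 2067, 1729 and 2150.2 in CA1 and 454 and 452 in CbG (2.41 ± 0.32). *Nr3c1*, the glucocorticoid receptor, was not called (0.21 ± 0.20, interval -0.24 to 0.66).

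The study's own table of genes higher in its vulnerable or resistant neurons was chosen on these arrays, so its counts are no independent evidence. Of its 30 tested probe sets higher in vulnerable neurons, 10 were higher in CbG than in CA1 and 3 were higher in CA1 (median -0.44). Of its 68 higher in resistant neurons, 40 were higher in CA1 and 11 in CbG (median 1.13). Over all probe sets tested these shares were 22.8% higher in CA1 and 14.3% in CbG (median 0.14). The array labelled CbG replicate 3 lay below all 3 CA1 arrays for 26 of the 30 and above them for 62 of the 68. CbG replicate 1 lay above all CA1 arrays for 18 of the 30 and below them for 44 of the 68, and the array labelled CA3 replicate 3 for 20 and 48.

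In all 74 probe sets called with the arrays as labelled, the array labelled CbG replicate 3 stood with the CbG group, outside the CA1 range. As labelled the groups did not overlap for 2335 of the 8986 tested, so this alone did not make a call. *Egr2*, an immediate early transcription factor, was at 1413, 929.6 and 308 in CA1, 93.3 and 38.9 in CbG replicates 1 and 2 and 37 on the array labelled CbG replicate 3 (3.99 ± 0.36 as labelled, adjusted p = 0.00833). Its CA1 signals were themselves spread. *Clcn2*, a chloride channel, was at 466, 606 and 524, 66 and 75.5 and 79.5 (2.99 ± 0.27, adjusted p = 0.00833). *Adcy2*, an adenylyl cyclase (3.07), *Sstr2*, a somatostatin receptor (2.41), the calcium-dependent membrane protein *Cpne5* (2.40), *Bend4* (2.36) and *Ifi27l2b* (2.45) were also among the 8 largest toward CA1, each a log2 difference as labelled.

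Toward CbG the 8 largest as labelled were *Pcp4* (-6.66), *Il16* (-6.39), *Car10* (-5.00), the adaptor *Shd* (-3.36), the elongation factor kinase *Eef2k* (-3.18), the tropomyosin *Tpm4* (-3.11), the phospholipase *Plcxd3* (-2.94) and *Kcnd3* (-2.83). *Tpm4* was at 106, 57.8 and 50.4 in CA1, 887 and 765 in CbG replicates 1 and 2, 392 on the array labelled CbG replicate 3 and 811 on that labelled CA3 replicate 3, so all 4 lay above CA1. In all, 17 of the 126 named genes called without the 2 arrays were called as labelled, and 123 with the labels exchanged. Most of these genes were picked from the fit without the 2 arrays, which shares arrays with the others, so the counts are no independent evidence. All 74 probe sets called as labelled, and 3287 of the 3332 called without the 2 arrays, had groups that did not overlap, as did 2335 and 5329 of the 8986 tested.

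RNA quality, read as the log2 ratio of 3′ to 5′ actin signals, was 4.76, 5.35 and 4.62 in CA1 and 3.88 and 6.52 in CbG replicates 1 and 2, so the CbG arrays lay on both sides of the CA1 range. Its part in the differences was not tested.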

How the data were processed

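LCM samples of untreated rats gave 12 arrays, 1 per region and biological replicate. Per the methods, the authors amplified total RNA in a double cycle, hybridized it to the Affymetrix RAE230A array and computed MAS5 signals in GCOS, scaled to 1 target. The deposited intensity is that MAS5 signal on a linear scale (0.1 to 68797.3). All columns belonged to a mapped sample. Signals were taken to log2 and centred on each array's median. After 57 control probe sets were left out, a probe set was tested if its signal exceeded the median (50th percentile) on 3 or more of the 12 arrays (8986 of 15866). The model was fitted with limma 3.58.1 in R 4.3.3 (lmFit, eBayes) with region means plus a block for the replicate number, and it was tested on simulated data. With 3 arrays a group, or 2, the number of arrays limits the precision.

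The replicate number was taken as the block because the methods took all regions from each animal and used paired tests. No label ties a number to an animal, so the pairing by animal is inferred. Deviations of same-numbered CA1 and CbG arrays from their group means correlated at r = 0.08, 0.04 and 0.09 as labelled. Symbols came from the platform annotation: 12783 probe sets had 1, 312 several and 2771 none. Named genes were the markers *Wfs1*, *Gabra6* and *Neurod1*, the 12 largest called differences each way without the 2 arrays, the 8 largest each way as labelled, up to 4 called members of each of 28 lists, 6 list members with an interval within 1.5-fold, and genes the study names (*Tf* and *Mt1a* were not tested). Members and lists were chosen with earlier results of these data known. Where a gene had several tested probe sets, that with the highest mean signal over the 12 arrays was used. Promoters came from RefSeq (GRCr8), and figures were drawn with Python 3.11.15 and matplotlib 3.10.9. Alternatives covered the block, the arrays in the fit, normalization, offset, floor, filter, prior, fold, each replicate left out and the methods' paired t-test.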

Additional observations from a re-analysis of the deposited data

How the results depend on the processing

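The counts rested on the array labelled CbG replicate 3: as labelled (48 higher in CA1, 26 in CbG), they were 2050 and 1282 without the 2 arrays and 2088 and 1560 with the labels exchanged. Leaving out single arrays or all arrays of 1 replicate number gave 0 to 1745 and 0 to 1107, with 1426 and 803 without CbG replicate 3 and at most 2 and 0 without any other single CA1 or CbG array. As labelled, the counts were 169 and 89 with no replicate block, 0 and 0 with only the CA1 and CbG arrays in the fit, 104 and 44 with 50 added before log2, 96 and 42 with signals under 50 set to 50, 3 and 1 with no filter, and 49 in CbG with no centring. The methods' t-test gave 420 and 195, and 0 and 0 after Benjamini-Hochberg adjustment. Without the 2 arrays, CA1 counts were 1285 in the fit of CA1 and CbG arrays alone and 1235 with no filter. The CbG counts were 748 with the 75th percentile filter, 795 with no filter and 804 to 1220 with single arrays or replicate numbers left out (804 without CbG replicate 2, against 1409 to 1828 in CA1). With the labels exchanged they were 856 in CbG with the 75th percentile filter, 1305 and 988 at 2-fold, 1346 to 2201 and 1107 to 1556 over single omissions (1346 in CA1 without the 4 arrays of replicate 1), and 922 in CbG by the methods' t-test, with 0 and 0 after adjustment. Dropping the replicate block changed the named calls of *Vwf* alone (adjusted p = 0.0771). The causes were not tested.

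Signs turned for *Grp*, which was called, and among genes that were not called. *Grp* was 0.12 with signals under 50 set to 50. With the labels exchanged *Atp5mc3* was 0.0089, *Eno2* -0.0048 and *Gpx1* 0.19, and as labelled *Gabrb2* was 0.28. Quantile normalization gave -0.072 for *Eno2*, -0.067 for *Cox4i1*, -0.0023 for *Sod2* and -0.088 for *Nr3c1*, and no centring gave -0.12 for *Eno2*, -0.12 for *Cox4i1* and -0.063 for *Sod2*. With only CA1 and CbG arrays *Eno2* was -0.022 and *Sod2* -0.032, and with no replicate block *Atp5mc3* was 0.00020. Over single omissions the ranges were -0.25 to 0.20 for *Atp5mc3*, -0.022 to 0.15 for *Eno2*, -0.025 to 0.18 for *Cox4i1*, -0.11 to 0.15 for *Gabrb2*, -0.35 to 0.27 for *Sod1*, -0.13 to 0.085 for *Cyc1*, -0.30 to 0.65 for *Sod2* and -0.69 to 0.15 for *Gpx1*.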
